A study of Homo sapiens with 15 samples.

Results

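The genes described here are the 7 histone deacetylase genes of class IIa (HDAC4, HDAC5, HDAC7 and HDAC9), class IIb (HDAC6 and HDAC10) and class IV (HDAC11). The rule that picked them uses symbol and class alone, out of 60649 genes in the count table. All 7 had counts in each of the 15 libraries, and all 7 passed the filter on low counts. The libraries were poly(A) RNA of K562 cells, an established cell line of chronic myeloid leukemia that carries BCR-ABL, with 3 libraries for each of 5 conditions. One condition was untreated, and the other four were exposures of 24 h to martinostat, a hydroxamate inhibitor of histone deacetylases (HDACs). The lower doses were 0.15 and 0.25 µM, and the higher ones 0.5 µM and 1 µM. The labels name no vehicle for the untreated cells, and no other agent or genetic change in any group. All values are from a single cell line at a single time, so they describe K562 cells under this exposure only.

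HDACs remove acetyl groups from lysines of histones and of other proteins, and inhibitors of the martinostat kind block the enzymes rather than their mRNA. Class IIa members bind MEF2 transcription factors at DNA, have weak catalytic activity of their own and act through corepressor complexes such as that of NCOR1; kinases phosphorylate them, 14-3-3 proteins then bind them, and they leave the nucleus. HDAC6 is the main deacetylase of alpha-tubulin in the cytoplasm, HDAC10 removes acetyl groups from polyamines, and HDAC11, the only class IV enzyme, removes fatty acyl groups from proteins such as SHMT2.

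Library totals ranged from 23755510 to 32805574 counts, and no pair of libraries was identical. The third replicates at 0.25 and 0.5 µM stood apart from the other libraries of their groups: their counts differed from those of replicates 1 and 2 by a chi-square of 60.7 to 109.5 per degree of freedom, against 5.85 to 38.4 for all other pairs of libraries within a group. Results that rest on these libraries are given with and without both, an alternative chosen after the data were seen. Levels are CPM, counts relative to library sizes that had been scaled with TMM (trimmed mean of M values), and fold changes are against untreated cells unless stated. Tests are the quasi-likelihood F test of edgeR, with p-values adjusted over all 23711 genes by the Benjamini-Hochberg method, and a gene was called at an adjusted p under 0.05. The scaling moved the whole distribution: the median log2 fold change of all genes was 0.28, 0.32, 0.34 and 0.32 in order of dose with TMM, and 0.64, 0.85, 0.72 and 0.67 with library totals. Of 10 markers of K562 cells, 7 were lower and 1 was higher at 1 µM, and their summed level went from 3453 to 3645 CPM in untreated libraries to 1196 to 1260 CPM at 1 µM. The marker that was higher was HBE1, at a very low level (0.170 CPM untreated, 0.491 CPM at 1 µM). Of 6 markers of other cell types, 4 were higher and 1 was lower at 1 µM, and their sum went from 63.2 to 71.6 CPM to 304 to 487 CPM. Most of the untreated sum was PTPRC (57.9 CPM untreated, 1.83 CPM at 1 µM). Most of the sum at 1 µM was COL1A1, which encodes a collagen chain (4.36 CPM untreated, 398 CPM at 1 µM). No marker of either list was at 0 in a whole group, and the part of these shifts in the results below was not tested.

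HDAC7 and HDAC4 fell, and HDAC5, HDAC6 and HDAC11 rose. In bulk RNA, fewer cells that express a gene and less of its RNA per cell cannot be told apart. At 1 µM HDAC7 was 8.59-fold lower, HDAC11 4.11-fold higher, HDAC6 2.76-fold higher and HDAC5 2.44-fold higher, while HDAC4 was 1.66-fold lower. HDAC9 and HDAC10 did not pass the edgeR test with TMM at any dose. At 0.15 µM 3 of the 7 were called, 2 higher and 1 lower, beside 51.2% of all genes (31.9% higher and 19.4% lower). At 0.25 µM these were 4, with 2 in each direction, beside 62.3% of all genes (37.4% and 24.8%). At 0.5 µM 5 were called, 3 of them higher, beside 66.9% (39.4% higher, 27.6% lower), and the numbers at 1 µM were again 5 and 3, beside 66.2% (38.8% higher, 27.5% lower). With all 15 libraries the share called among the 7 was thus near that among all genes at each dose. With replicate 3 left out at both 0.25 and 0.5 µM, 4, 6, 6 and 6 of the 7 were called in order of dose. Of the 24200 genes tested then, 13846, 15100, 15964 and 16920 were called. From 0.25 µM upward the share among the 7 was then above that among all genes, a difference that was not tested. In the test over the 5 groups with all 15 libraries, 6 of the 7 were called, beside 73.6% of all genes. The median log2 fold change of the 7 was 0.22, 0.22, -0.08 and -0.46 in order of dose.

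**Figure D1:**
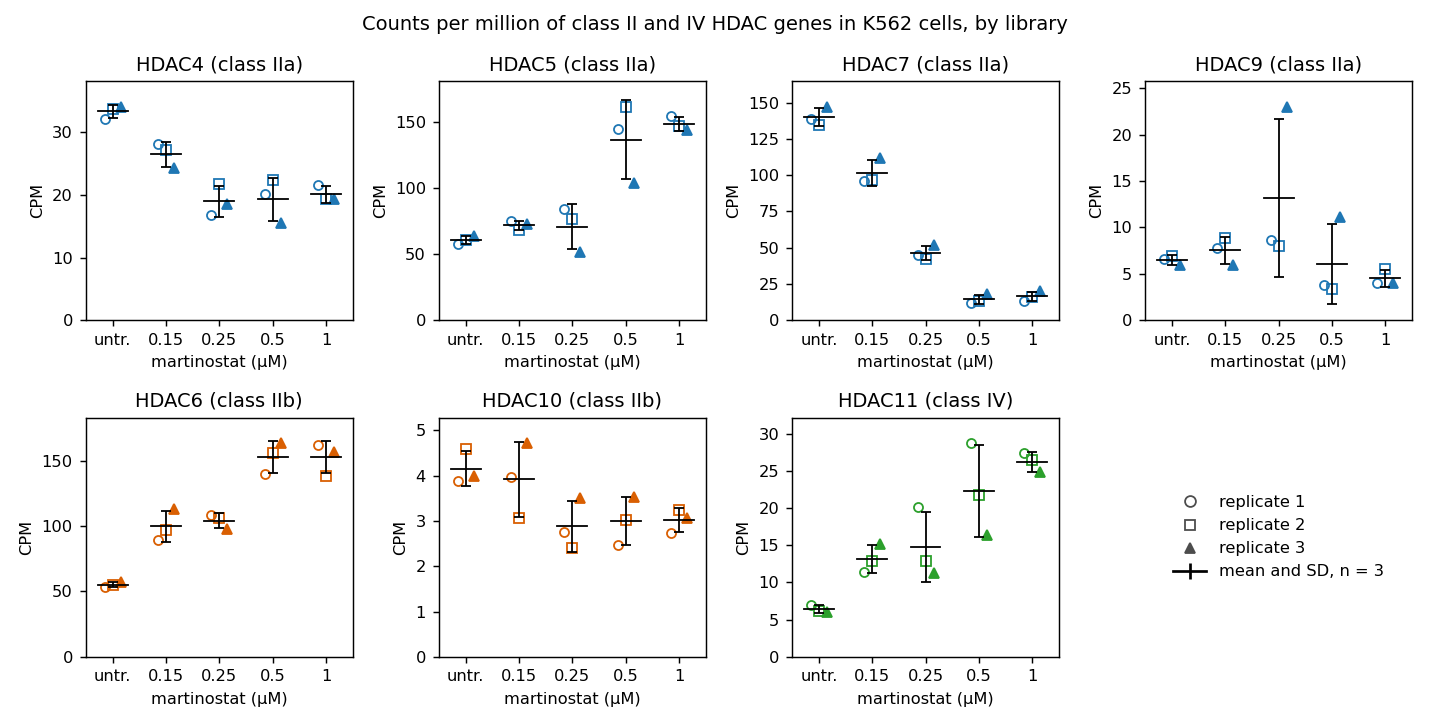
Each panel plots 1 gene in CPM (linear axis from 0) against the martinostat dose in µM; symbols are single libraries by replicate number, and the black line and bar give the mean and SD of 3 libraries. HDAC7 goes from 140 to 16.3 CPM while HDAC5, HDAC6 and HDAC11 go up, and the filled triangles of replicate 3 at 0.25 and 0.5 µM lie apart for HDAC9 (23.0 and 11.1 CPM).

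HDAC7, a class IIa repressor best known from developing lymphocytes and from endothelium, is encoded on the minus strand of chromosome 12 (hg38 47782722 to 47833132). In the untreated libraries it stood at 138, 135 and 147 CPM. It stood at 95.8, 96.6 and 112 CPM at 0.15 µM, and at 44.9, 42.0 and 51.9 CPM at 0.25 µM. At 0.5 µM it was at 11.8, 13.2 and 17.7 CPM, and at 1 µM at 13.2, 16.0 and 19.7 CPM. Up to 0.5 µM no library of a dose reached the level of any library of the dose below it, and the libraries of 0.5 and 1 µM overlapped. The log2 fold change was -0.47 (SE 0.164, edgeR adjusted p = 0.0231) at 0.15 µM and -1.60 (SE 0.168, edgeR adjusted p = 1.49e-07) at 0.25 µM. It reached -3.30 (SE 0.180, edgeR adjusted p = 1.38e-11) at 0.5 µM and -3.10 (SE 0.178, edgeR adjusted p = 2.76e-11) at 1 µM. HDAC7 also fell from 0.15 to 0.25 µM (log2 -1.13, edgeR adjusted p = 2.95e-04) and from 0.25 to 0.5 µM (log2 -1.70, edgeR adjusted p = 4.85e-07). From 0.25 µM upward these calls held in 27 of 27 alternative analyses, but the call at 0.15 µM was lost in 8 of 27. With library totals in place of TMM that value was -0.11 (edgeR adjusted p = 0.692), and it was -0.43 without replicate 3 of the untreated group or without replicate 1 or 2 at 0.15 µM (edgeR adjusted p from 0.0748 to 0.0799). Exons of other genes on the opposite strand cover 11.2% of the exon bases of HDAC7.

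The promoter sequences of RefSeq (GRCh38.p14, 250 bases before to 50 after a transcription start) hold 6 of the 7 genes; HDAC5 is missing. The stretches upstream of the starts of HDAC7 and HDAC11 are shown because these 2 genes had the largest fall and the largest rise of the 7 at 1 µM. Each is the part of the window that lies outside annotated exons, read 5′ to 3′ on the strand of the gene. Both lie inside the span of their own gene, in intron sequence of transcripts that start further upstream. The HDAC7 stretch is chr12:47819981-47820153 on the minus strand and the HDAC11 stretch is chr3:13480117-13480214 on the plus strand. Capitals mark a GC box (GGGCGG on either strand).
HDAC7: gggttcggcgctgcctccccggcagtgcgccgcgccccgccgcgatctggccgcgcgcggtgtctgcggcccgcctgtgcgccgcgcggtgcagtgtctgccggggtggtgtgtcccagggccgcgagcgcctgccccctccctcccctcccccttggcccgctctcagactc
HDAC11: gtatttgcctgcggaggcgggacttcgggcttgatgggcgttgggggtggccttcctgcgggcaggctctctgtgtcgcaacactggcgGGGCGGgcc
Short motifs were searched on both strands of the full windows. The GC box was present in 5 copies in the HDAC11 window and in 4 in that of HDAC10, it was absent from the HDAC7 window, and 45.0% of all 35116 RefSeq promoter windows hold it. The HDAC7 window holds 1 GATA site (AGATAA, in 10.3% of all windows), and no CCAAT box (CCAAT, in 34.6%) and no match to the MEF2 consensus (in 2.99%). Of the 3 HDAC6 windows, the one with most motifs holds 4 GC boxes and 2 CCAAT boxes. G and C make up 74.7% of the HDAC7 window and 73.7% of the HDAC11 window. These are matches of letters in a window, and no binding was measured.

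HDAC5, a class IIa member that represses MEF2 targets in muscle and heart, lies on the minus strand of chromosome 17 (hg38 44076746 to 44123702). Its untreated libraries stood at 57.7, 60.7 and 63.9 CPM. The 0.15 µM libraries stood at 74.8, 67.8 and 72.4 CPM and the 0.25 µM libraries at 84.1, 76.3 and 51.5 CPM. At 0.5 µM HDAC5 was at 145, 161 and 103 CPM, and at 1 µM at 154, 146 and 144 CPM. All libraries of the 2 higher doses lay above all libraries of the other 3 groups, and replicate 3 at 0.25 µM was the only treated library below the untreated range. The log2 fold change was 0.24 (SE 0.173, edgeR adjusted p = 0.265) at 0.15 µM and 0.22 (SE 0.173, edgeR adjusted p = 0.288) at 0.25 µM. HDAC5 rose at 0.5 µM (log2 1.17, SE 0.175, edgeR adjusted p = 9.92e-06) and at 1 µM (log2 1.28, SE 0.176, edgeR adjusted p = 3.18e-06). The step from 0.25 to 0.5 µM was itself called (log2 0.95, edgeR adjusted p = 3.61e-04). Leaving out replicate 3 at both 0.25 and 0.5 µM gave 0.42 at 0.25 µM, which was called (edgeR adjusted p = 0.00309). With library totals the changes at 0.15 and 0.25 µM were 0.60 (edgeR adjusted p = 9.71e-04) and 0.72 (edgeR adjusted p = 1.18e-04). G6PC3, a glucose phosphatase gene on the opposite strand, covers 24.0% of the exon bases of HDAC5; its own level was 90.2 CPM untreated and 68.6 CPM at 1 µM.

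HDAC4, a class IIa member that restrains chondrocyte and muscle gene programs, lies on the minus strand of chromosome 2 (hg38 239048168 to 239401654). It stood at 32.2, 33.8 and 34.1 CPM in untreated libraries. At 0.15 µM it was at 28.1, 27.1 and 24.3 CPM, and at 0.25 µM at 16.8, 21.7 and 18.6 CPM. At 0.5 µM it was at 20.1, 22.3 and 15.6 CPM, and at 1 µM at 21.6, 19.3 and 19.4 CPM. All 12 treated libraries lay below the 3 untreated ones, and the 3 higher doses overlapped one another. The log2 fold change was -0.33 (SE 0.151, edgeR adjusted p = 0.0732) at 0.15 µM, which did not pass the test. Of 27 alternatives, 6 called this value and 3 reversed its sign. Among those that called it were DESeq2 (log2 -0.38, adjusted p = 0.035) and RLE factors (log2 -0.38, edgeR adjusted p = 0.0406). Leaving out replicate 3 at both 0.25 and 0.5 µM did so too (log2 -0.33, edgeR adjusted p = 0.0301). HDAC4 fell at 0.25 µM (log2 -0.81, SE 0.152, edgeR adjusted p = 1.44e-04), at 0.5 µM (log2 -0.79, SE 0.152, edgeR adjusted p = 1.59e-04) and at 1 µM (log2 -0.73, SE 0.152, edgeR adjusted p = 3.30e-04). With library totals the value at 0.15 µM was 0.03, so its sign there depended on the scaling, and the value at 0.25 µM was -0.29 and not called (edgeR adjusted p = 0.0962). The falls at 0.5 and 1 µM were -0.43 (edgeR adjusted p = 0.0147) and -0.38 (edgeR adjusted p = 0.0297) with library totals, and limma on log2(FPKM + 0.01) did not call them (adjusted p = 0.0501 and 0.0801). HDAC4-AS1, an antisense RNA of the locus that shares 0.712% of the exon bases of HDAC4, rose from 0.634 to 2.70 CPM at 1 µM (log2 2.08, edgeR adjusted p = 2.43e-04).

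HDAC9, a class IIa member with a very long gene on the plus strand of chromosome 7 (hg38 18086949 to 19002416), had low counts, from 79 to 920 per library. Its untreated libraries stood at 6.54, 6.95 and 5.95 CPM and its 0.15 µM libraries at 7.73, 8.90 and 5.99 CPM. At 0.25 µM it was at 8.61, 7.98 and 23.0 CPM, and at 0.5 µM at 3.80, 3.31 and 11.1 CPM. The 1 µM libraries stood at 3.98, 5.53 and 4.01 CPM. In both middle doses replicate 3 was at more than the sum of the other 2 libraries. No dose was called against untreated cells by edgeR with TMM. The log2 fold change was 0.22 (edgeR adjusted p = 0.709) at the lowest dose and 1.03 (edgeR adjusted p = 0.0518) at 0.25 µM. It was -0.08 (edgeR adjusted p = 0.888) at 0.5 µM and -0.52 (edgeR adjusted p = 0.314) at 1 µM. At 0.25 µM 14 of 27 alternatives called HDAC9, among them DESeq2 (log2 1.08, adjusted p = 0.0246), RLE factors (log2 1.08, edgeR adjusted p = 0.0446) and library totals (log2 1.61, edgeR adjusted p = 0.0139). The test over the 5 groups called HDAC9 (edgeR adjusted p = 0.0379), but 10 of 25 alternatives did not, 8 of which left out a single library; without replicate 3 at 0.25 µM its p was highest (edgeR adjusted p = 0.287). With replicate 3 left out at both 0.25 and 0.5 µM the value at 0.25 µM was 0.38 and not called (edgeR adjusted p = 0.133), while the falls at 0.5 µM (log2 -0.83, edgeR adjusted p = 0.00348) and at 1 µM (log2 -0.48, edgeR adjusted p = 0.0379) were called. Without replicate 1 or 2 at 0.25 µM the value there was 1.26 or 1.28 and was called (edgeR adjusted p = 0.0307 and 0.0232). Without replicate 3 at 0.25 µM alone the value there was again 0.38 (edgeR adjusted p = 0.419), and without replicate 3 at 0.5 µM alone the value at 0.5 µM was -0.87 (edgeR adjusted p = 0.0481). From 0.25 to 0.5 µM the change was -1.11 (edgeR adjusted p = 0.0685), and with the replicate number as a block it was -1.12 and was called (edgeR adjusted p = 0.0437).

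HDAC6, the tubulin deacetylase of class IIb, lies on the plus strand of chromosome X (hg38 48801377 to 48824982) and shares no exon base with another annotated gene. Its untreated libraries stood at 53.4, 55.1 and 57.3 CPM. At 0.15 µM it was at 89.3, 96.7 and 113 CPM, and at 0.25 µM at 108, 106 and 97.6 CPM. At 0.5 µM it was at 140, 156 and 163 CPM, and at 1 µM at 162, 139 and 157 CPM. All 12 treated libraries lay above the untreated ones, the 2 lower doses overlapped, and the 2 higher doses lay above them. HDAC6 rose by a log2 of 0.85 (SE 0.130, edgeR adjusted p = 2.34e-05) at 0.15 µM and of 0.91 (SE 0.130, edgeR adjusted p = 6.59e-06) at 0.25 µM. It rose by 1.47 (SE 0.131, edgeR adjusted p = 1.14e-08) at 0.5 µM and by 1.46 (SE 0.131, edgeR adjusted p = 1.17e-08) at 1 µM. These 4 calls held in 27 of 27 alternatives, over which the log2 fold change ran from 0.75 to 1.21 at 0.15 µM and from 1.40 to 1.85 at 1 µM. The step from 0.25 to 0.5 µM was called too (log2 0.56, edgeR adjusted p = 0.00268).

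HDAC10, the polyamine deacetylase of class IIb, lies on the minus strand of chromosome 22 (hg38 50245183 to 50251405) and had from 56 to 140 counts per library. The untreated libraries stood at 3.88, 4.60 and 3.99 CPM and the 0.15 µM libraries at 3.97, 3.07 and 4.71 CPM. At 0.25 µM HDAC10 was at 2.75, 2.40 and 3.51 CPM, at 0.5 µM at 2.47, 3.01 and 3.54 CPM, and at 1 µM at 2.73, 3.25 and 3.07 CPM. The libraries of the 3 higher doses all lay below the untreated ones, yet no difference passed the test: the log2 fold change was -0.52 at 0.25 µM (95% interval -1.04 to -0.01, edgeR adjusted p = 0.0719), -0.46 at 0.5 µM (-0.98 to 0.06, edgeR adjusted p = 0.107) and -0.46 at 1 µM (-0.98 to 0.05, edgeR adjusted p = 0.105). Leaving out replicate 3 at both middle doses gave -0.67 at 0.25 µM, which was called (edgeR adjusted p = 0.0294). The sign at 0.15 µM depended on the scaling, with -0.09 by TMM and 0.27 by library totals. MAPK12, a p38 kinase gene on the same strand, covers 55.8% of the exon bases of HDAC10, and only 26.4% are free of other annotated exons. MAPK12 itself fell from 56.5 to 15.9 CPM at 1 µM (log2 -1.83, edgeR adjusted p = 2.16e-07), and how many HDAC10 fragments came from shared bases was not tested.

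HDAC11, the class IV enzyme, lies on the plus strand of chromosome 3 (hg38 13479724 to 13506424). It stood at 6.99, 6.18 and 5.99 CPM in untreated libraries. At 0.15 µM it was at 11.4, 12.9 and 15.1 CPM, and at 0.25 µM at 20.2, 12.9 and 11.3 CPM. At 0.5 µM it was at 28.7, 21.8 and 16.4 CPM, and at 1 µM at 27.4, 26.5 and 24.8 CPM. All 12 treated libraries lay above the untreated ones; the spread was widest at 0.25 and 0.5 µM, where replicate 3 was the lowest, and narrowest among the treated groups at 1 µM. HDAC11 rose by a log2 of 1.04 (SE 0.224, edgeR adjusted p = 7.58e-04) at 0.15 µM and of 1.21 (SE 0.224, edgeR adjusted p = 1.27e-04) at 0.25 µM. It rose by 1.80 (SE 0.227, edgeR adjusted p = 1.11e-06) at 0.5 µM and by 2.04 (SE 0.227, edgeR adjusted p = 2.31e-07) at 1 µM. These calls held in 27 of 27 alternatives. The step from 0.25 to 0.5 µM (log2 0.59, edgeR adjusted p = 0.0456) was lost in 16 of 27, 12 of which left out a single library. Without replicate 1 at 0.5 µM it was 0.37 (edgeR adjusted p = 0.258). With replicate 3 left out at both 0.25 and 0.5 µM the step was 0.63 and was called (edgeR adjusted p = 0.0195). The changes against untreated cells were then 1.395 at 0.25 µM (edgeR adjusted p = 7.87e-07) and 2.025 at 0.5 µM (edgeR adjusted p = 1.14e-09). The antisense gene HDAC11-AS1, which shares 6.31% of the exon bases, had 0 to 5 counts per library.

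**Figure D2:**
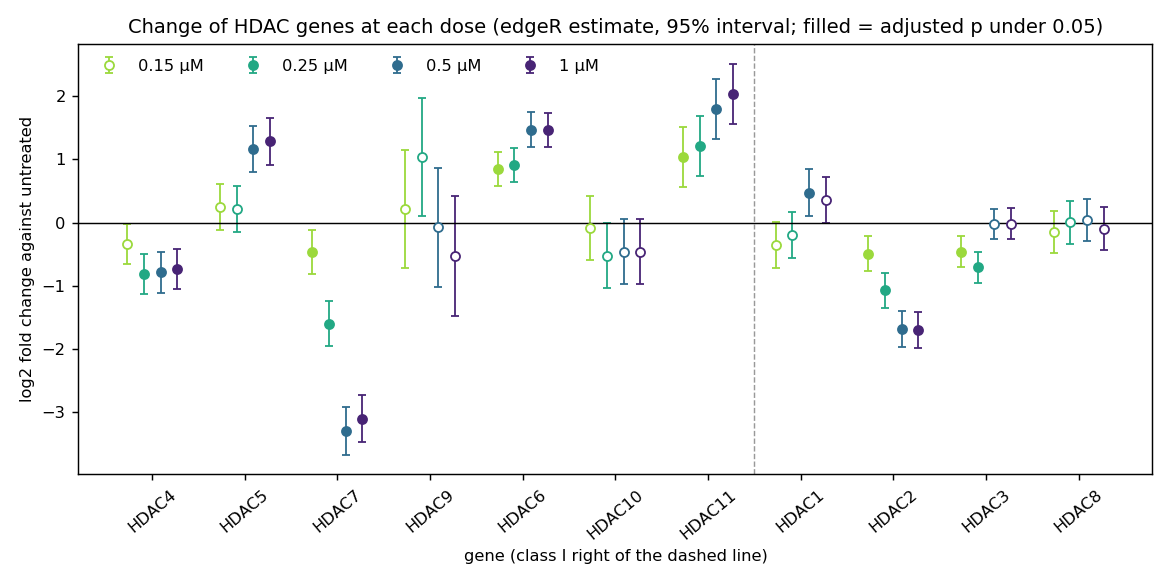
Points give the log2 fold change against untreated cells (linear axis) of the 7 genes and, right of the dashed line, of the 4 class I genes, with 95% intervals; colours are doses and filled points have an adjusted p under 0.05. HDAC7 reaches -3.30 at 0.5 µM and HDAC11 reaches 2.04 at 1 µM, the intervals of HDAC9 are the widest, and the 0.5 and 1 µM points of each gene lie side by side.

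The share of the 1 µM change that was present at lower doses was computed for the 5 genes called at 1 µM. On the log2 scale with TMM, 58.1% of the HDAC6 change, 51.0% of the HDAC11 change and 45.5% of the HDAC4 change were seen at 0.15 µM, against 18.5% for HDAC5 and 15.0% for HDAC7. At 0.25 µM HDAC4 had 111% of its 1 µM change, HDAC7 had 51.5% and HDAC5 had 16.9%. At 0.5 µM the 5 genes stood between 88.4% (HDAC11) and 108% (HDAC4). The shares depend on the scaling. With library totals those at 0.15 µM were 66.4% for HDAC6, 58.3% for HDAC11, 36.5% for HDAC5 and 3.98% for HDAC7, and HDAC4 had the opposite sign there. The values of HDAC4 and HDAC5 at 0.15 µM and of HDAC5 at 0.25 µM did not pass the test, and the shares were not tested against each other.

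Tests between neighbouring doses placed the steps. From 0.15 to 0.25 µM, 2 of the 7 genes were called, beside 12.3% of all genes (4.96% higher and 7.32% lower). Both were lower: HDAC7, and HDAC4 (log2 -0.48, edgeR adjusted p = 0.0465), whose call was lost in 22 of 27 alternatives, 12 of which left out a single library. From 0.25 to 0.5 µM, 4 were called, beside 30.4% of all genes (14.4% higher and 16% lower): HDAC5, HDAC6 and HDAC11 rose and HDAC7 fell. These 2 groups were taken as paired by replicate number, a choice made from correlations in these same data. With that number as a block 5 were called, with HDAC9 added (on only their 6 libraries log2 -1.17, edgeR adjusted p = 2.95e-05) and HDAC11 among them (log2 0.59, edgeR adjusted p = 0.00133). On the same 6 libraries without the block neither HDAC9 (log2 -1.125, edgeR adjusted p = 0.208) nor HDAC11 (log2 0.58, edgeR adjusted p = 0.167) was called. The labels do not state a pairing, so the p-values with the block hold only if it is real. Between 0.5 and 1 µM none was called, and neither was any other gene (0%) by edgeR; at an unadjusted p under 0.05 there were 372 genes, none of them among the 7, whose lowest unadjusted p in the edgeR fit was 0.259. DESeq2 called 0 genes in that step, and limma on log2(FPKM + 1) called 1, which was not among the 7. Between 0.15 and 1 µM 5 of the 7 differed, beside 44.5% of all genes (21.5% higher and 23.1% lower): HDAC5, HDAC6 and HDAC11 were higher and HDAC4 and HDAC7 lower at 1 µM. Of these, the HDAC4 call (log2 -0.40, edgeR adjusted p = 0.0395) was lost in 16 of 27 alternatives, 9 of which left out a single library.

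Levels per length set the genes beside each other, but their order depends on the length used. The exon length here is the union of the exons of all annotated transcripts of a gene. It is 14472 bases for HDAC6 and 7618 bases for HDAC5. Lengths of the transcripts present in K562 cells were not estimated. Per kilobase of annotated exon, untreated K562 cells held most HDAC7 (14.1 ± 0.644 CPM per kilobase, SD, n = 3), then HDAC5 (7.98 ± 0.407), HDAC6 (3.82 ± 0.135), HDAC4 (2.35 ± 0.0733), HDAC11 (1.22 ± 0.102), HDAC10 (0.840 ± 0.0775) and HDAC9 (0.375 ± 0.0292). Each neighbouring pair in this order differed by more than its SDs, which do not include the uncertainty of the length. The place of HDAC10 is uncertain, since only 26.4% of its exon bases are free of other exons and the strand setting of the counting is not known. At 1 µM the order was HDAC5 (19.4 ± 0.677), HDAC6 (10.5 ± 0.847), HDAC11 (5.01 ± 0.251), HDAC7 (1.64 ± 0.330), HDAC4 (1.42 ± 0.0930), HDAC10 (0.609 ± 0.0527) and HDAC9 (0.261 ± 0.0512). There HDAC7 and HDAC4 were no further apart than the SD of HDAC7. For comparison with class I, per kilobase of exon HDAC1 stood at 63.2 CPM, HDAC3 at 25.7 and HDAC2 at 21.7 in untreated cells, and at 80.9, 25.3 and 6.70 at 1 µM, while HDAC8 stood at 0.593 and 0.554.

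The make-up of the class II and IV mRNA changed accordingly. HDAC7 held 46.0% of the sum of the 7 levels per kilobase of exon in untreated cells and 31.8% at the lowest dose. It held 17.5% at 0.25 µM, and at the higher doses of 0.5 and 1 µM its shares were 3.92% and 4.22%. HDAC5 went from 26.0% to 49.9% at 1 µM, HDAC6 from 12.4% to 27.1%, and HDAC11 from 3.98% to 12.9%. HDAC4 went from 7.67% to 3.64%, HDAC9 from 1.22% to 0.669% and HDAC10 from 2.74% to 1.56%. The shares follow from the means given above, depend on the same exon lengths and were not tested.

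**Figure D3:**
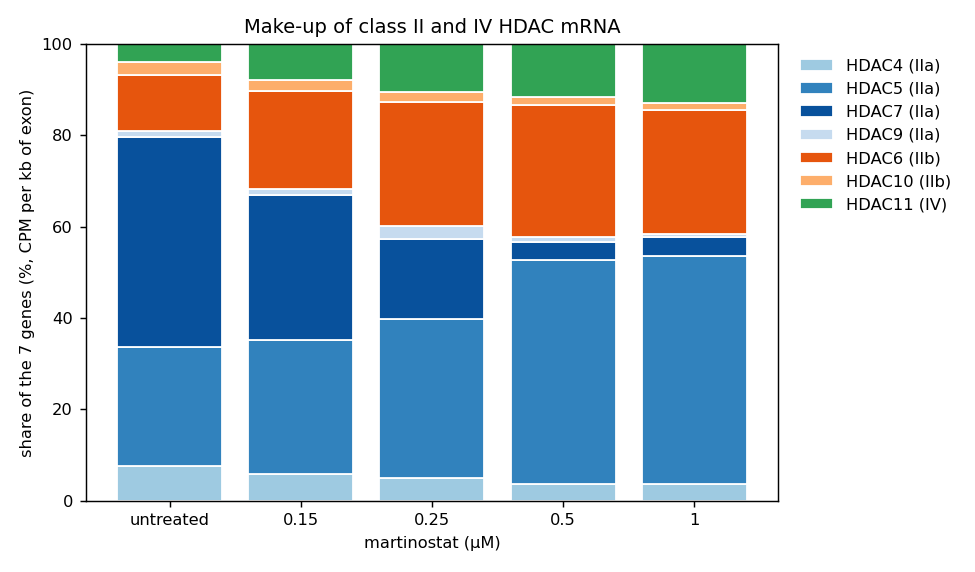
Stacked bars give, for each dose in µM, the share in percent of each gene in the summed CPM per kilobase of exon of the 7 genes (means of 3 libraries). HDAC7 shrinks from 46.0% to 4.22% while HDAC5 grows from 26.0% to 49.9% and HDAC11 from 3.98% to 12.9%.

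The deposited FPKM values give another order, because their length is not the exon length. Dividing counts by FPKM returned, for each of the 7 genes, exactly the genomic span with introns. For HDAC9 that length is 53.0 times the exon length, for HDAC4 24.9 times, for HDAC5 6.16 times, for HDAC11 5.10 times and for HDAC7 5.08 times, but for HDAC6 only 1.63 times and for HDAC10 1.26 times. On the span, HDAC10 stood at 0.668 CPM per kilobase in untreated cells and HDAC4 at 0.0944, the reverse of their order on exons. At 1 µM HDAC6 (6.46 CPM per kilobase of span) stood above HDAC5 (3.15), again the reverse. The length is the same in all libraries and does not enter the fold changes from counts. It does enter those from limma on log2(FPKM + a pseudocount), where HDAC9 at 0.25 µM was at 0.017 with a pseudocount of 1 and HDAC4 at 0.25 µM was at -0.018.

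**Figure D4:**
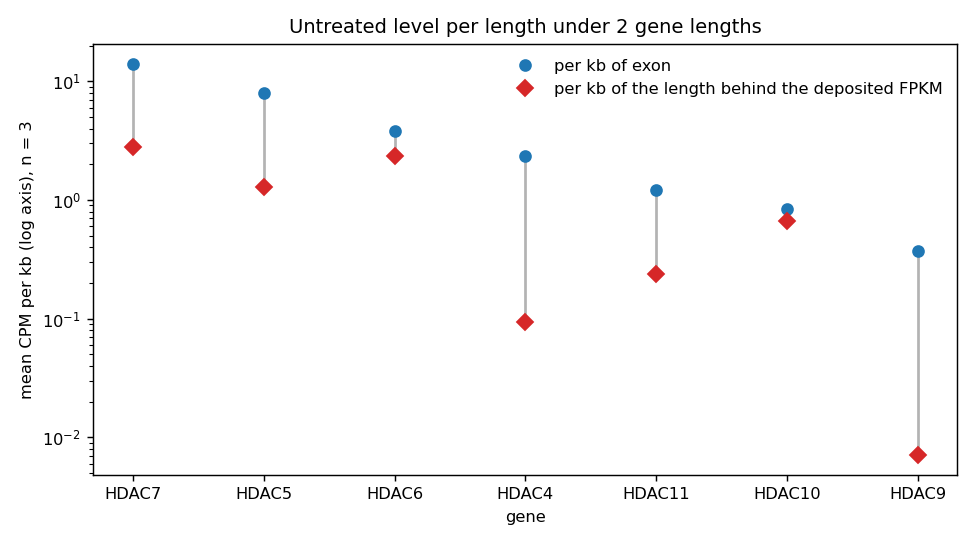
For each gene, the mean CPM per kilobase in untreated cells (log axis, n = 3) is given on annotated exon length (circles) and on the length behind the deposited FPKM (diamonds). The 2 lengths leave HDAC10 nearly in place (0.840 and 0.668) and move HDAC9 from 0.375 to 0.00708, which changes the order of the genes.

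Class I was represented by HDAC1, HDAC2, HDAC3 and HDAC8. HDAC2 fell at all 4 doses, to a log2 fold change of -1.70 at 1 µM (edgeR adjusted p = 2.08e-09). HDAC3, the catalytic partner of class IIa proteins in the corepressor complex, fell at 0.15 µM (log2 -0.47, edgeR adjusted p = 0.00264) and 0.25 µM (log2 -0.71, edgeR adjusted p = 3.61e-05) and stood at -0.02 at 0.5 and at 1 µM. The class I values are with TMM only, and the alternatives were not examined for these genes. In the deposited FPKM, scaled by library totals, HDAC3 had a mean of 5.93 untreated, 5.50 at 0.15 µM and 5.20 at 0.25 µM. Its mean FPKM was 7.58 at 0.5 µM and 7.47 at 1 µM, so its direction depended on the scaling. HDAC1 was called at 0.5 µM only (log2 0.47, edgeR adjusted p = 0.0222), and HDAC8 was not called at any dose. The HDAC1 libraries ran from 240 to 266 CPM untreated, from 292 to 438 CPM at 0.5 µM and from 315 to 326 CPM at 1 µM. They thus lay above the untreated range at both of these doses, and the HDAC1 call was not examined without the third replicates. The fall of HDAC7 at 1 µM (95% interval of the log2 fold change -3.48 to -2.73) and that of HDAC2 (-1.98 to -1.42) had intervals that did not overlap; the difference between the 2 genes was not tested.

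The partners and substrates of the 7 enzymes were counted from lists by role. These counts are with TMM only, and the alternatives were not examined for the list genes. Each count at 1 µM stands beside the 38.8% of all genes that were higher and the 27.5% that were lower at that dose. Of the 4 MEF2 factors, the DNA-binding partners of class IIa, 2 were higher and 1 was lower at 1 µM: MEF2D rose from 26.6 to 48.8 CPM (log2 0.88, edgeR adjusted p = 1.58e-05), MEF2C fell from 28.7 to 13.9 CPM (log2 -1.05, edgeR adjusted p = 3.82e-05), and MEF2B rose from 0.0401 to only 0.721 CPM. Among kinases that phosphorylate class IIa proteins, 12 of 13 were tested, and 7 were higher and 5 lower at 1 µM. CAMK1D, a calcium-dependent kinase, rose from 1.05 to 14.7 CPM (log2 3.80, edgeR adjusted p = 3.43e-12) and was already at 14.9 CPM at 0.15 µM. PRKD3, a protein kinase D, fell from 89.8 to 47.5 CPM (log2 -0.92, edgeR adjusted p = 1.28e-04).

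The 14-3-3 proteins, which hold phosphorylated class IIa HDACs in the cytoplasm, and the exporter XPO1 mostly fell. Of these 8 genes 6 were lower and 1 was higher at 1 µM, with a median log2 fold change of -0.82 beside 0.32 for all genes, of which 27.5% were lower and 38.8% higher. In the deposited FPKM, scaled by library totals, YWHAG had a mean of 24.5 untreated and 23.2 at 1 µM, and YWHAB 12.9 and 13.4. The mean FPKM of YWHAE, YWHAH, YWHAQ, YWHAZ and XPO1 was lower at 1 µM there too. YWHAH had the lowest value (from 157 to 58.7 CPM, log2 -1.42, edgeR adjusted p = 1.64e-08), and XPO1 fell from 677 to 352 CPM (log2 -0.94, edgeR adjusted p = 5.13e-04). SFN, an epithelial member of the family, rose from 3.83 to 13.0 CPM (log2 1.76, edgeR adjusted p = 5.29e-05). Of the corepressor subunits through which class IIa proteins act, 4 are counted here, which is not the full list, and 3 of these were lower at 1 µM beside 27.5% of all genes: TBL1X fell from 118 to 39.4 CPM (log2 -1.58, edgeR adjusted p = 1.06e-07), TBL1XR1 from 99.4 to 45.5 CPM (log2 -1.13, edgeR adjusted p = 9.40e-06) and NCOR1 from 185 to 112 CPM (log2 -0.73, edgeR adjusted p = 1.30e-04).

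Of 7 genes around tubulin acetylation and other HDAC6 substrates, 2 were higher and 2 lower at 1 µM. SIRT2, the other tubulin deacetylase, rose from 55.4 to 127 CPM (log2 1.20, edgeR adjusted p = 8.36e-05). ATAT1, the tubulin acetyltransferase, was lower at 0.15 µM (log2 -0.63, edgeR adjusted p = 0.0110) and stood at -0.16 at 1 µM (edgeR adjusted p = 0.480). PRDX1, a peroxidase and HDAC6 substrate, rose (log2 0.88, edgeR adjusted p = 1.61e-05), and HSP90AA1, a chaperone and HDAC6 substrate, fell (log2 -0.69, edgeR adjusted p = 0.00253). Beside HDAC10 and HDAC11, 3 of 4 polyamine and substrate genes were higher and 1 was lower at 1 µM. SAT1, which acetylates spermidine and spermine, rose from 16.0 to 290.1 CPM (log2 4.18, edgeR adjusted p = 1.92e-10), and the polyamine oxidases SMOX (log2 2.32, edgeR adjusted p = 3.47e-09) and PAOX (log2 2.17, edgeR adjusted p = 6.06e-05) rose as well. SHMT2, a serine hydroxymethyltransferase and HDAC11 substrate, fell from 338 to 218 CPM (log2 -0.63, edgeR adjusted p = 0.00834).

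**Figure D5:**
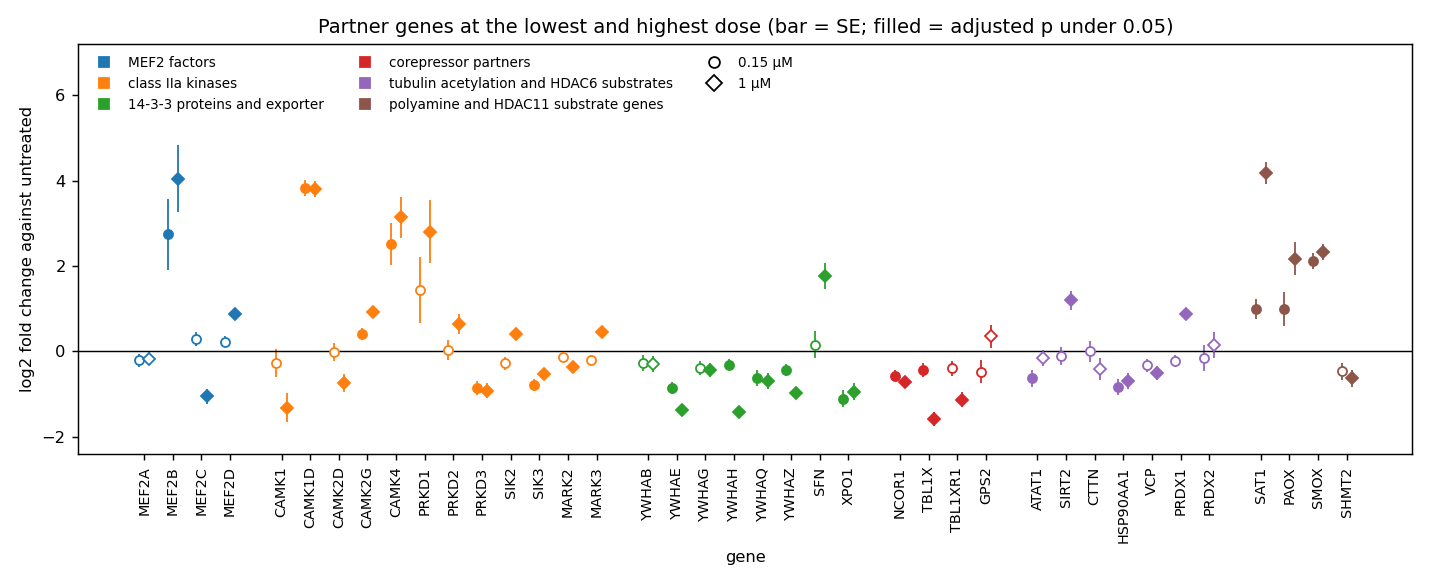
Log2 fold change against untreated cells (linear axis, bars SE) of the tested partner and substrate genes at 0.15 µM (circles) and 1 µM (diamonds), coloured by list; filled symbols have an adjusted p under 0.05. The polyamine genes SAT1, PAOX and SMOX lie at 2.17 to 4.18 at 1 µM, and 6 of the 8 genes of the 14-3-3 and exporter list are filled below 0.

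To place the 7 patterns among all genes, each was compared over the 15 libraries with 15185 genes of at least 1 CPM, by the root mean square difference of log2 levels centred on each gene's own mean. The genes most like HDAC7 were PHF2, a histone demethylase gene (difference 0.174), and TMEM268 (0.182), against a root mean square of 1.36 for HDAC7 about its own mean. HDAC6 was nearest to SEPTIN6, a cytoskeletal GTPase gene (0.104), and HDAC5 to FBXL20, an F-box protein gene (0.126). HDAC4 was nearest to RAPGEF1 (0.0978) and HDAC11 to PRX (0.148). HDAC9 was nearest to LINC01410 (0.197), a noncoding RNA gene, and HDAC10 to SNRNP70 (0.147). Within the 7, the smallest differences were between HDAC4 and HDAC10 (0.303), HDAC6 and HDAC11 (0.308) and HDAC5 and HDAC6 (0.335), and the largest was between HDAC7 and HDAC11 (2.04). The measure is not scaled for amplitude. The root mean square about the own mean was 0.286 for HDAC10, less than its difference from HDAC4, and 0.346 for HDAC4. It was 0.565 for HDAC5, 0.545 for HDAC6 and 0.741 for HDAC11. The differences between genes describe the 15 libraries, which share dose and depth, and carry no test.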

How the data were processed

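Poly(A) RNA of K562 cells was sequenced from 15 libraries, whose group and replicate number come from the sample labels. The authors prepared directional libraries, trimmed reads with Trim Galore 0.6.10, aligned them to hg38 with HISAT2 2.2.1 and counted fragments per gene with featureCounts 1.5.3. For that counting, no strand setting is given in the sources used here. The deposited count table held raw counts of 60649 genes, not normalised, and symbols were found for 99.7% of them. The deposited FPKM tables, 1 per library, held counts divided by the library total and by a gene length, as computed by the authors, and served as an alternative.

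The analysis used edgeR 4.0.16 (R 4.3.3) on the counts: filterByExpr left 23711 genes, TMM scaled the libraries, and all 15 libraries entered 1 robust quasi-likelihood fit with no term other than the group (biological coefficient of variation 0.228). The test was checked on simulated counts with known changes in a small part of the genes at 1 µM and the same dispersion for all genes. That check does not cover a shift of most genes or libraries that stand apart, as in these data. Alternatives used library totals, RLE or other TMM factors, other filters, DESeq2 1.42.0, limma 3.58.1 on log2 FPKM, fewer libraries, and the replicate number as a block. Replicate 2 at 0.25 µM and replicate 1 at 0.5 µM, of unequal number, had a correlation of 0.236. Libraries of equal replicate number deviated together between 0.25 and 0.5 µM, with correlations of 0.266, 0.268 and, for replicate 3, 0.579. For no other pair of groups did all replicate numbers do so, so they were taken as pairs for that comparison only. The replicates are numbered as biological ones; if they shared a culture, the p-values would measure technical spread.

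The 7 genes and the lists of partners were chosen with earlier results of these data known; MAPK12 and G6PC3 were added after their overlap was seen. One gene of the corepressor list is not reported here. Named are the 7 genes, class I, partner genes called at 1 µM (and ATAT1, chosen after its values were seen), and the genes nearest in pattern to each of the 7. Positions and exons are from GENCODE on hg38 and promoter sequences from RefSeq. Figures were drawn with matplotlib 3.10.9.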

Additional observations from a re-analysis of the deposited data

How the results depend on the processing

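Of 1080 comparisons of a member's log2 fold change with its value under an alternative, 950 kept direction and call, 66 lost the call, 46 gained one and 18 changed sign. Each change of sign concerned a value that was not called. For HDAC4 at 0.15 µM these were 0.029 (library totals), 0.0020 (limma on log2(FPKM + 1)) and 0.021 (limma on log2(FPKM + 0.01)). For HDAC10 at 0.15 µM they were 0.27 (library totals), 0.18 (TMM on genes with 10 CPM or more), 0.092 (at least 10 counts in every library), and 0.10 and 0.25 (limma with the larger and smaller pseudocount), and at 0.25 µM 0.021 (library totals) and 0.0011 (limma, larger pseudocount). For HDAC9 at 0.5 µM they were 0.39 (library totals), 0.39 (TMM on genes with 10 CPM or more), 0.23 (at least 10 counts in every library), and 0.0025 and 0.091 (limma). With a single library left out, HDAC10 at 0.15 µM ran from -0.24 to 0.064 and HDAC9 at 0.5 µM from -0.87 to 0.21. Scales that raise the median of all genes raise these values by construction; other causes were not tested. The number of the 7 genes called from 0.15 to 0.25 µM was 2 and became 1 with library totals, RLE factors, TMM on genes with 10 CPM or more, no filter, the stricter filter, DESeq2, both limma fits, only the libraries compared, and the replicate block on only the libraries compared; with single libraries left out it was 1 or 2. All other counts of called genes stayed within 1.5 times their value. With the replicate block on all libraries the counts were 3, 4, 5 and 5 against untreated cells in order of dose. From 0.25 to 0.5 µM the block gave 5 in place of 4, by the call of HDAC9, and on all libraries it changed no other call. The fit on only the libraries compared called HDAC4 at 0.15 µM and HDAC9 at 0.25 µM both without the block (edgeR adjusted p = 0.0446 and 0.0194) and with it (edgeR adjusted p = 0.0495 and 0.0384). There, the block lost the call of HDAC4 from 0.15 to 1 µM (edgeR adjusted p = 0.0285 without and 0.0577 with it). It also lost the call of HDAC9 at 1 µM against untreated cells (edgeR adjusted p = 0.0475 without and 0.0524 with it). Depth was lowest for HDAC10, with 56 to 140 counts per library.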
